A study of Mus musculus with 6 samples.

Results

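Forkhead transcription factors other than Foxi1 were examined in the ureteric epithelium of the embryonic mouse kidney, the branching tree whose tips drive kidney growth and whose stalks become the collecting ducts and join the ureter. The group was made of 10 genes (Foxq1, Foxa1, Foxc1, Foxj1, Foxk1, Foxm1, Foxo1, Foxo3, Foxp1 and Foxp4), found by gene symbol, out of 21456 symbols with values and out of 44 forkhead symbols looked for, of which 38 had values. The genes were selected on tip and stalk results of these same libraries, so their levels and differences are given as a description and carry no test. The tip group held 3 libraries of cells positive for both a Wnt11RFP and a Hoxb7GFP reporter. The stalk group held 3 libraries of cells positive for Hoxb7GFP and negative for Wnt11RFP. Both groups came from E16.5 kidneys of the CFW strain, and cells of both carried the Hoxb7GFP reporter, whose Hoxb7 driver is known to be active throughout the ureteric tree. The labels do not describe how either reporter allele was built, and they name no number of animals per library. Since no source says whether separate animals gave the libraries, p-values here cover the spread among these samples alone, and that spread may be technical.

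Forkhead factors bind DNA through a winged-helix domain one helix of which lies in the major groove, and many recognise a core written GTAAACA. Foxa proteins can bind closed chromatin and prepare epithelial genes for activation. Foxo proteins are kept out of the nucleus when insulin signalling through Akt is active, Foxm1 drives genes of late cell cycle phases, and Foxp proteins mostly repress. In the collecting duct the best known forkhead factor is Foxi1, the regulator of acid- and base-secreting intercalated cells.

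The coding bases of the recognition helix show how far the genes differ in the segment that touches DNA. The 45 coding bases (15 codons) of this segment are printed 5′ to 3′ on the coding strand from GENCODE M21 (mm10), with capitals marking bases that differ from Foxq1. They are shown for several of the genes on which the results below turn. The segments of Foxq1 (chr13:31559391-31559435) and Foxc1 (chr13:31807571-31807615) lie on the plus strand, each within 1 exon. The segment spans an exon junction in Foxm1 (chr6:128369480-128370995, plus, exons 4 and 5), Foxo3 (chr10:42197863-42274821, minus, exons 2 and 3) and Foxp4 (chr17:47871313-47874640, minus, exons 13 and 14).
Foxq1: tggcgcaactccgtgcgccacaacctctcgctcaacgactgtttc
Foxc1: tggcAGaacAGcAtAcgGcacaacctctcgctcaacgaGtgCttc
Foxm1: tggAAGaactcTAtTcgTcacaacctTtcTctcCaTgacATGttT
Foxo3: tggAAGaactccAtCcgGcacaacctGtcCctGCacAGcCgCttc
Foxp4: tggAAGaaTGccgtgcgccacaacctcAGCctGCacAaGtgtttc
Among all 10 genes, identity with Foxq1 over these bases ran from 60% in Foxo1 to 80% in Foxc1. Foxc1 shared 36 of the 45 bases with Foxq1, and 12 of its 15 codons encoded the same amino acid as in Foxq1.

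Levels are RPKM (reads scaled to transcript length and library size), computed by the authors and here summed over the deposited rows of each symbol. Means are given ± SD over n = 3 libraries, and differences are tip minus stalk on the scale of log2(RPKM + 1), with their standard error (SE), so that a positive value means higher in tip. This scale understates the change of genes with low levels. The 12532 genes whose mean reached 1 RPKM entered 1 limma fit over the 6 libraries, and a gene is called where its Benjamini-Hochberg adjusted p over all of them was under 0.05. Of all genes tested, 26.1% were called toward tip and 22.5% toward stalk, and counts in gene lists are to be read beside these shares. How deeply each library was sequenced is unknown. The 12 markers of ureteric tip summed to 1442 to 2293 RPKM in tip and 180 to 254 RPKM in stalk, and the 12 markers of stalk and urothelium summed to 373 to 415 RPKM in tip and 1575 to 2187 RPKM in stalk. Against their list, Wnt9b (-1.23) was higher in stalk and Calb1 (2.68) in tip. On the second principal component, with 9.21% of the variance, 2 libraries, tip replicate 2 (-20.5) and stalk replicate 1 (-25.0), lay away from the remaining 4 (7.72 to 18.5). Differences of several genes that were highest in both are also given without them. The 2 libraries were picked from these data and the genes for being highest in them, so leaving both out narrows the spread by construction. Differences, calls and p-values without them are a description and no support for a difference. Endothelial markers summed to 36.5 to 39.1 RPKM in tip and 80.4 to 128 RPKM in stalk. Of 11 tested genes, 10 were called toward stalk and 1, Eng, toward tip. The sums understate the difference of most of these genes, whose median was -2.01. Most of the tip sum came from Egfl7 (mean 18.1 RPKM, stalk mean 25.1 RPKM) and Eng (mean 9.59 RPKM, stalk mean 7.07 RPKM). Podocyte markers summed to 31.5 to 41.8 RPKM in tip and 74.8 to 79.0 RPKM in stalk, most of it Cd2ap, which was the 1 called of 5 tested. Stromal markers summed to 5.54 to 10.7 RPKM in tip and 5.72 to 10.3 RPKM in stalk, with 0 of 4 tested genes called by limma. Immune and blood markers summed to 25.1 to 85.8 RPKM in tip and 21.1 to 102 RPKM in stalk. Those sums varied mainly with the haemoglobin genes Hba-a1 and Hba-a2, which were not called. Of 5 tested genes, limma called 1 toward each group. Laptm5 lay toward stalk (means of 0.101 RPKM for tip, 5.03 RPKM for stalk, difference -2.39, limma adjusted p = 0.000206). Cd68 lay toward tip (0.69, limma adjusted p = 0.00375). No marker with values was at 0 in all 6 libraries, and the part of these cells in the forkhead differences was not tested.

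Of the 10 genes, Foxq1 and Foxa1 had the highest mean levels in stalk, and Foxp4 and Foxm1 in tip. Foxm1, Foxo1 and Foxp4 had every tip library above every stalk library, and Foxq1, Foxa1, Foxj1 and Foxp1 had every tip library below every stalk library. The groups of Foxk1 and Foxo3 overlapped. These were the 9 genes that passed the minimum level, and Foxc1, with a mean under 1 RPKM, did not pass it. Non-overlapping groups were seen in 57.8% of all genes tested. Of the 9 genes, 6 were past the threshold, where 48.6% of all genes were called. The 2 past it toward tip were Foxm1 and Foxp4 (background 26.1%), and the 4 toward stalk were Foxq1, Foxa1, Foxj1 and Foxp1 (background 22.5%). With 1 library left out, 5 to 7 genes were past the threshold: Foxo3 came in without tip replicate 2 (and without it and stalk replicate 1 together), and Foxj1 dropped out without tip replicate 1 or 3 or stalk replicate 2 or 3. Foxp1 dropped out when only its highest row was used. Because the genes were picked with this contrast known, nothing is read from these counts. The median difference of the 9 genes was -0.49, beside 0.05 for all genes tested. The plot of levels by library shows how tight or loose each of these separations was.

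**Figure D1:**
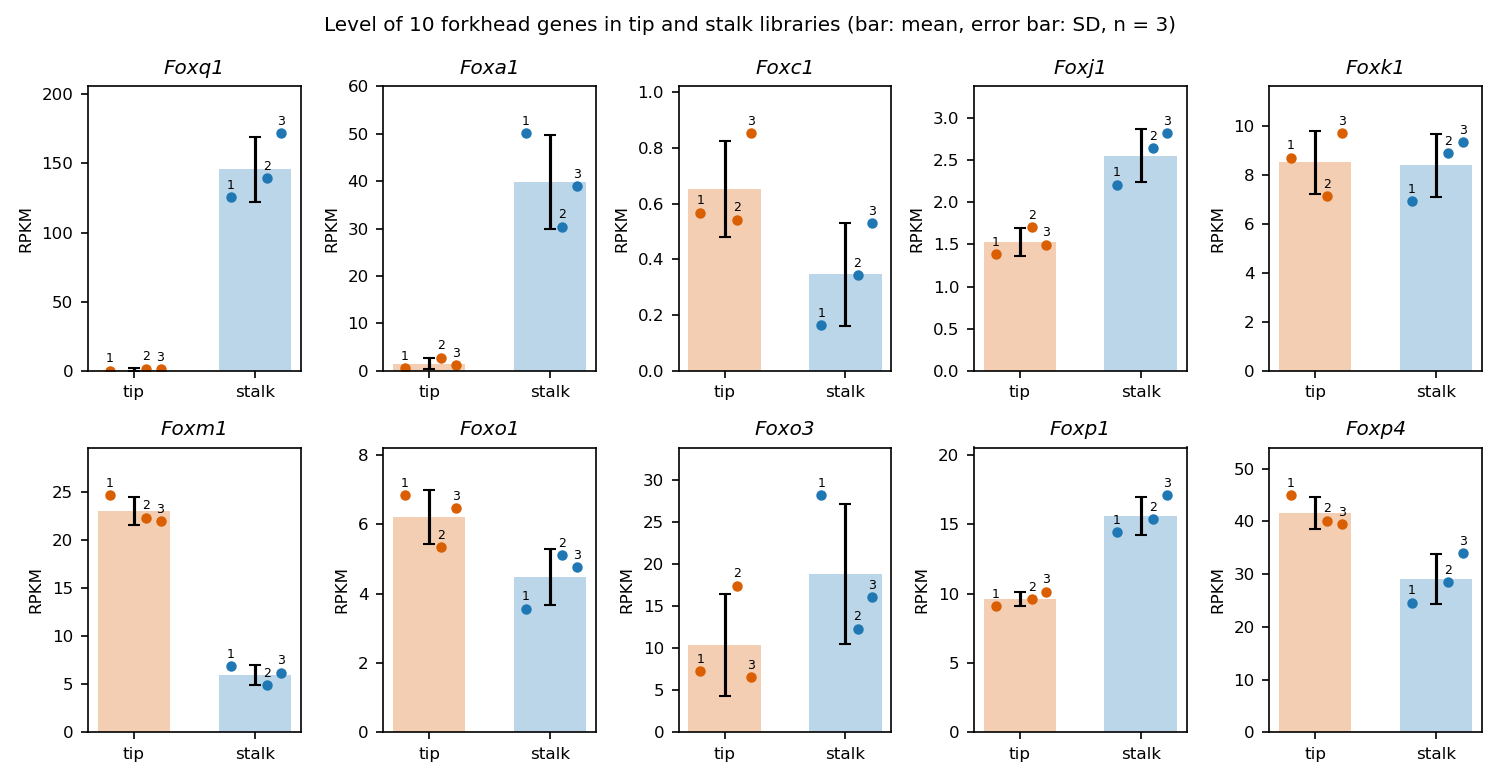
RPKM of the 10 forkhead genes in tip (orange, left) and stalk (blue, right) libraries, each panel with its own linear axis from 0. Points are single libraries with their replicate number, bars are means and error bars are SD (n = 3). Foxq1 stood between 0.173 and 1.51 RPKM in tip and between 126 and 172 RPKM in stalk, while the libraries of Foxk1 and Foxo3 overlapped between the groups.

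Foxq1, a factor known in the mouse for hair structure and for acid secretion by the stomach, showed the widest difference of the 10 genes. The gene lies at chr13:31556134-31560976 on the plus strand of mm10 and has 1 deposited row. Its level was 0.173, 1.51 and 1.36 RPKM in tip replicates 1, 2 and 3, against 126, 140 and 172 RPKM in stalk replicates 1, 2 and 3. Even the highest tip library lay far under the lowest stalk library, and tip replicate 1 was lower than the other tip libraries. The means were 1.01 ± 0.733 RPKM in tip and 146 ± 23.6 RPKM in stalk, which is 144-fold lower in tip, and the log2 difference was -6.25 (SE 0.28). The size depended on the pseudocount, with -7.39 at a pseudocount of 0.1. In bulk RNA, fewer cells expressing a gene and less RNA per cell cannot be told apart, and markers of several stalk cell types were high in the same libraries. The principal cell gene Aqp2 averaged 4.06 RPKM (tip) and 575 RPKM (stalk). For the intercalated cell gene Atp6v1b1 the averages were 0.630 RPKM (tip) and 93.0 RPKM (stalk). For the urothelial gene Upk3a they were 0.0231 RPKM (tip) and 221 RPKM (stalk). Which of these cells held Foxq1 cannot be told apart here.

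Foxq1 made up 0.0954%, 0.829% and 0.772% of the summed RPKM of all forkhead genes in tip replicates 1, 2 and 3, and 37.3%, 38.2% and 42.7% in stalk replicates 1, 2 and 3. That sum was 181, 183 and 176 RPKM in tip and 336, 365 and 402 RPKM in stalk. With Foxq1, Foxa1 and Foxi1 left out it was 181, 178 and 173 RPKM in tip and 142, 134 and 153 RPKM in stalk. The order of the groups was thus reversed when the 3 genes with the largest stalk excess were removed. This is a description, since those 3 were taken for their size.

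Foxq1 lies in a cluster with Foxf2 and Foxc1, and its neighbours did not share its level. Foxf2, a mesenchymal factor 64840 bases away, was listed at 0 in all tip libraries and in 2 stalk libraries and at 0.124 RPKM in stalk replicate 2. The enzyme gene Gmds, 258603 bases away on the other strand, stood at 10.3, 9.0 and 9.97 RPKM in tip and 5.23, 9.01 and 6.50 RPKM in stalk, which overlapped, and was not called (limma adjusted p = 0.0582). The gene A530084C06Rik shares 3200 bases with Foxq1 on the opposite strand. It reached at most 0.158 RPKM in tip and stood at 0.877 to 1.61 RPKM in stalk, without overlap. The kit marked strand, but whether the counting used it is not given in the sources used here, so reads of this pair cannot be told apart.

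Foxa1, a pioneer factor of endodermal and urogenital epithelia, was the other gene with a large excess in stalk. The gene lies at chr12:57540628-57546916 on the minus strand and has 1 row. Its level was 0.545, 2.80 and 1.21 RPKM in tip and 50.02, 30.4 and 38.9 RPKM in stalk. The groups were far apart, and within each group Foxa1 was highest in tip replicate 2 and in stalk replicate 1, the libraries that stood apart. Means were 1.52 ± 1.16 RPKM (tip) and 39.8 ± 9.84 RPKM (stalk). The log2 difference was -4.09 (SE 0.32), or -4.26 without those 2 libraries. In stalk its range overlapped that of Foxi1, at 18.5, 60.9 and 38.6 RPKM, which was at 0.171, 0.00812 and 0.352 RPKM in tip. Foxi1 differed by -4.96 (limma adjusted p = 2.56e-05).

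Promoter windows from 250 bases before to 50 bases after the RefSeq gene start (GRCm38.p6) were found for 6 of the 10 genes (8 windows); Foxq1, Foxj1, Foxk1 and Foxm1 were not matched. The forkhead core GTAAACA, searched on both strands (TGTTTAC on the other), occurred in 3.65% of all 32851 windows. Among the 8 windows of these genes it occurred in that of Foxa1 (chr12:57546062-57546361, minus strand), beginning 141 bases before the RefSeq start. The whole window lies inside the GENCODE span of Foxa1 (chr12:57540628-57546916). By that annotation the match is within the gene, downstream of its 5′ end, and which start these cells use was not tested. The window is printed because it carries the core of the family's own recognition sequence, in capitals. A match is a description of letters and not evidence of a bound site.
Foxa1 window: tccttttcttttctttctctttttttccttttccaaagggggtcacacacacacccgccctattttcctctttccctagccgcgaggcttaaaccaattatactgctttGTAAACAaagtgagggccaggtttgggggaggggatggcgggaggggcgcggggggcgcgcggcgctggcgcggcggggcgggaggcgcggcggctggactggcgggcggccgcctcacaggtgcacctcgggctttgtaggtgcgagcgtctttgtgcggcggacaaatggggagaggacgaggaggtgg

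Genes that act with Foxa1 in epithelia lay mostly toward stalk. Of 14 listed, 11 were tested, 8 were called toward stalk and 0 toward tip by limma (0 also at an unadjusted p under 0.05), with a median of -1.54. The shares over all genes were 22.5% toward stalk and 26.1% toward tip. The list was written with earlier results of these data known, so its direction is a description and no support for a role of Foxa1. The hedgehog ligand Shh stood at 0.528, 1.61 and 0.507 RPKM in tip and 34.2, 36.4 and 39.1 RPKM in stalk, a difference of -4.37 (SE 0.21, limma adjusted p = 5.70e-06). The nuclear receptor Pparg, which drives urothelial differentiation, stood at 0.580, 0.495 and 0.30 RPKM in tip and 8.43, 16.48 and 11.3 RPKM in stalk (-3.12, limma adjusted p = 2.36e-05). In both genes every tip library lay far under every stalk library. The GATA factor gene Gata2 differed by -2.09 (limma adjusted p = 0.000374), with every tip library below every stalk library. The zinc finger gene Klf5 differed by -2.25 (limma adjusted p = 0.0184), but with 7.71, 48.1 and 9.10 RPKM in tip and 135, 53.3 and 61.4 RPKM in stalk it was again highest in tip replicate 2 and stalk replicate 1. Its call was lost without tip replicate 1 (-1.80, adjusted p = 0.0651) and without tip replicate 3 (-1.90, adjusted p = 0.0650), and with no minimum level (-2.25), within a range of adjusted p over its alternatives of 2.01e-05 to 0.0833 in limma. Without tip replicate 2 and stalk replicate 1 the Klf5 difference was -2.63 (limma adjusted p = 2.01e-05). Among the tested genes that did not pass were Grhl2 (-0.03) and Ehf (-0.26), which encode broad epithelial factors. Hnf4a and Esr1, nuclear receptors that work with Foxa factors in liver and breast, were under the minimum level.

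Foxc1, a factor known in the mouse for patterning of the early urinary tract and eye, was low in both compartments. The gene lies at chr13:31806633-31812476 on the plus strand. It stood at 0.567, 0.542 and 0.851 RPKM in tip and 0.163, 0.343 and 0.530 RPKM in stalk. The lowest tip library lay just above the highest stalk library. Its low level kept it out of the fit, so it has no difference on the log2 scale here. Markers of nephron progenitors, the mesenchyme around the tips, summed to 5.98 to 9.03 RPKM in tip and 3.27 to 4.77 RPKM in stalk, and both tested ones, Cited1 (0.82) and Crym (1.04), were called toward tip by limma. The part of nephron progenitors in the level of Foxc1 was not tested. Of 12 listed partners of Foxc1 4 were tested, 1 was called toward tip and 0 toward stalk by limma (0 also at an unadjusted p under 0.05). The shares over all genes were 26.1% toward tip and 22.5% toward stalk. The called gene was the chemokine gene Cxcl12, at 13.1, 6.59 and 13.5 RPKM in tip and 1.48, 2.10 and 2.09 RPKM in stalk (2.01, limma adjusted p = 0.000344). Pax2, a regulator of the ureteric bud and the most abundant of the list, had 113, 82.9 and 103 RPKM in tip and 63.6, 81.4 and 112 RPKM in stalk. These overlapped, and it was not called (0.24, limma adjusted p = 0.349).

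Foxm1 was the forkhead gene with the largest difference toward tip. It lies on chromosome 6, plus strand, and its level was 24.7, 22.3 and 22.0 RPKM in tip and 6.89, 4.88 and 6.21 RPKM in stalk. The libraries of each group lay close together and the groups were far apart. The means were 23.0 ± 1.48 RPKM in tip and 5.99 ± 1.02 RPKM in stalk, 3.84-fold higher in tip, with a log2 difference of 1.79 (SE 0.14). Of its 6 deposited rows, 1 held 90.4% to 93.3% of the level in tip and 86.7% to 95.3% in stalk. The genes Tex52 and Gm44596 overlap 691 and 644 of its bases on the same strand.

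Target genes of Foxm1, which are general genes of G2 phase and mitosis, lay toward tip almost without exception. Of 24 tested, 23 were called toward tip and 1 toward stalk, with a median of 1.59, beside 26.1% and 22.5% of all genes. This list too was written with earlier results of these data known, so its direction is a description and no support for a role of Foxm1. Top2a, which encodes the topoisomerase that untangles replicated DNA, stood at 88.9, 68.8 and 88.2 RPKM in tip and 16.3, 16.1 and 19.9 RPKM in stalk. The spindle checkpoint kinase gene Bub1 (2.14), the ubiquitin-conjugating enzyme gene Ube2c (2.01) and the kinesin gene Kif2c (1.96) followed Top2a (2.167), with limma adjusted p-values of 1.22e-05 for Bub1, 1.56e-05 for Ube2c, 6.37e-05 for Kif2c and 1.25e-05 for Top2a. The exception was Cdc25b, a phosphatase gene that starts mitosis, at 28.7, 24.3 and 31.8 RPKM in tip and 36.0, 41.5 and 39.5 RPKM in stalk (-0.46, limma adjusted p = 0.0131), named after its value was seen. Its groups did not overlap.

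Proteins that bind or activate Foxm1 were counted apart. Of 10 tested, 7 were called toward tip and 0 toward stalk by limma (0 also at an unadjusted p under 0.05), with a median of 0.76. The shares over all genes were 26.1% toward tip and 22.5% toward stalk, and the same limit on the list holds. Cdk1, the kinase that starts mitosis, had 110, 94.3 and 107 RPKM in tip and 23.6, 23.6 and 27.9 RPKM in stalk (2.01, limma adjusted p = 8.27e-06). The kinase gene Melk (1.85), the B-Myb gene Mybl2 (1.29) and Cdk2 (1.15) had smaller differences. Fzr1 (0.40), the adaptor through which Foxm1 protein is degraded after mitosis, Lin52 (0.32) and Lin37 (-0.37) did not pass.

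**Figure D2:**
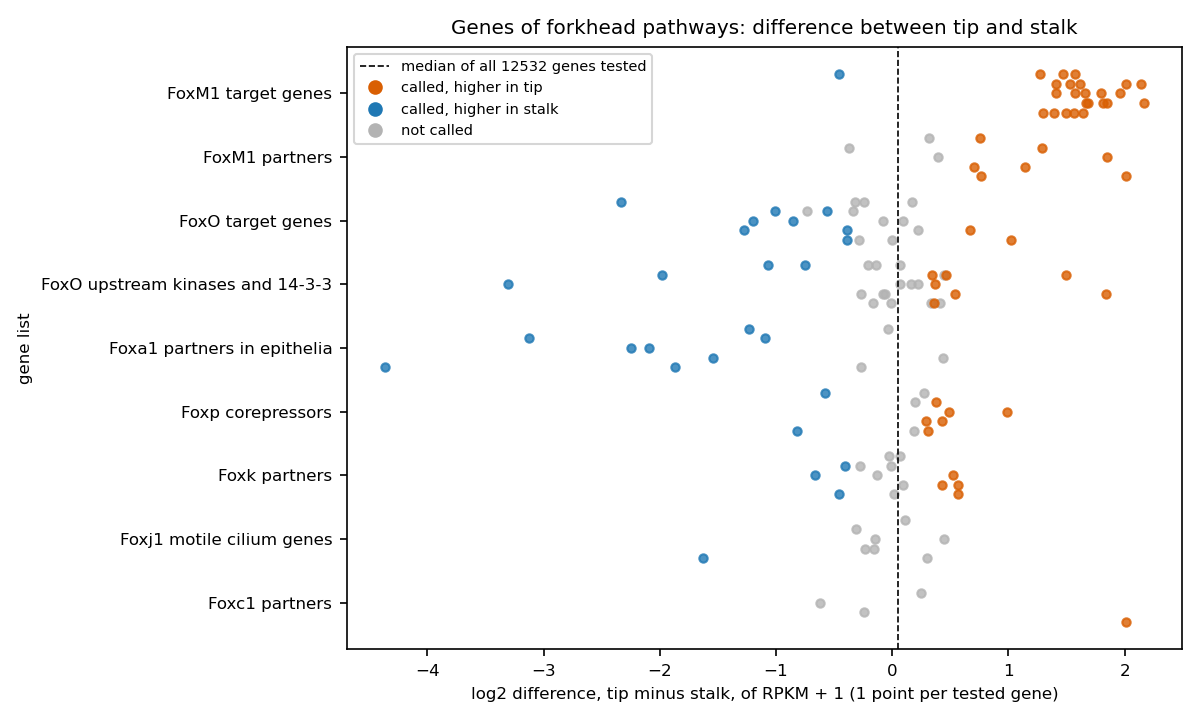
Differences between tip and stalk, on the scale of log2(RPKM + 1), of every tested gene in 9 lists of targets and partners of the forkhead factors, 1 point per gene (orange called higher in tip, blue called higher in stalk, grey not called; height within a row has no meaning). The dashed line is the median of all genes tested, 0.05. Foxm1 targets lie at a median of 1.59 and Foxa1 partners at -1.54, while the partners of Foxk lie around a median of 0.00.

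Foxo1 and Foxo3, which link insulin signalling to stress resistance, cell cycle arrest and metabolism, had differences of opposite sign. Neither was past the threshold with all libraries, and they were not tested against each other. Foxo1, on chromosome 3, plus strand, stood at 6.84, 5.34 and 6.47 RPKM in tip and 3.57, 5.11 and 4.76 RPKM in stalk. The lowest tip library, replicate 2, was barely above the highest stalk library, replicate 2. The log2 difference was 0.40 (SE 0.16) and was not past the threshold. The antisense gene Gm20402 overlaps 1001 bases of Foxo1 and the same-strand gene Gm38034 overlaps 2069, so part of its reads is uncertain.

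Foxo3, on chromosome 10, minus strand, stood at 7.26, 17.4 and 6.57 RPKM in tip and 28.2, 12.3 and 16.1 RPKM in stalk. Tip replicate 2 lay above 2 of the 3 stalk libraries, so the groups overlapped. The highest values were again in tip replicate 2 and stalk replicate 1. Means were 10.4 ± 6.08 RPKM (tip) and 18.9 ± 8.32 RPKM (stalk). The log2 difference was -0.84 (SE 0.38) and was not past the threshold. Without those 2 libraries the difference was -0.93 (SE 0.16) and past the threshold, and without tip replicate 2 alone it was -1.25 (SE 0.30). Without stalk replicate 1 alone it was -0.53 (SE 0.36). The gene with the nearest profile over the 6 libraries was Stat3, a cytokine-activated transcription factor, which stood at 26.1, 56.3 and 24.9 RPKM in tip and 91.5, 42.9 and 52.6 RPKM in stalk. Ddit3 and Epha2 came next. Foxo3 had 5 deposited rows, and its overlap and its peak in tip replicate 2 came mainly from the leading one. That row stood at 3.76, 14.2 and 5.82 RPKM in tip and 21.7, 9.89 and 10.6 RPKM in stalk. The second row, at 1.22, 1.09 and 0.704 RPKM in tip and 3.28, 1.64 and 2.96 RPKM in stalk, did not overlap and was not highest in tip replicate 2.

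The share of Foxo3 in the summed RPKM of the Foxo genes was 21.2%, 40.4% and 18.2% in tip and 66.1%, 35.8% and 44.3% in stalk. Tip replicate 2 lay above stalk replicate 2, so the shares overlapped between the groups. Foxo4, the most abundant Foxo gene in tip, stood at 18.9, 18.7 and 21.2 RPKM in tip and 9.41, 16.1 and 14.5 RPKM in stalk. It was called toward tip (0.55, SE 0.18, limma adjusted p = 0.0352), and the call was lost without any single tip library (0.50 to 0.58) and without stalk replicate 3 (0.62), and with no minimum level, with adjusted p over its alternatives in limma between 0.0186 and 0.108. Foxo6, low in both groups, was not called (0.29, limma adjusted p = 0.212).

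Target genes of the Foxo factors were called in both directions, more often toward stalk. Of 26 listed, 20 were tested, 2 were called toward tip, 8 toward stalk and 10 were not called, with a median of -0.33. Over all genes 26.1% were called toward tip and 22.5% toward stalk. Txnip, which encodes an inhibitor of thioredoxin and glucose uptake, stood at 10.2, 9.72 and 11.8 RPKM in tip and 43.1, 84.3 and 51.5 RPKM in stalk (-2.33, SE 0.22, limma adjusted p = 8.06e-05). The transcription factor gene Klf2 stood at 9.31, 8.83 and 8.51 RPKM in tip and 16.0, 24.4 and 25.9 RPKM in stalk (-1.20, limma adjusted p = 0.000723). Both had tight tip libraries that lay below all stalk libraries. Klf2 is also a known endothelial gene, and the endothelial sums above were higher in the stalk libraries; their part in its difference was not tested.

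Ccng2, an atypical cyclin gene linked to arrest, went the other way, with 50.9, 75.3 and 39.1 RPKM in tip and 33.0, 22.4 and 22.8 RPKM in stalk (1.02, limma adjusted p = 0.00803). Cdkn1a, which encodes the cell cycle inhibitor p21, stood at 6.46, 24.8 and 11.4 RPKM in tip and 49.0, 28.5 and 22.1 RPKM in stalk. Its groups overlapped, since tip replicate 2 lay above stalk replicate 3. It was called toward stalk (-1.28, limma adjusted p = 0.0404), but not without tip replicate 1 (-0.86), tip replicate 3 (-1.22), stalk replicate 1 (-0.97) or stalk replicate 2 (-1.35), nor with no minimum level or no mean-variance trend (-1.28 in both), and adjusted p over its alternatives in limma ran from 0.00271 to 0.136. Without tip replicate 2 and stalk replicate 1 together, Cdkn1a differed by -1.44 (limma adjusted p = 0.00271) and Ccng2 by 0.95 (limma adjusted p = 0.0014).

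Of the 20 Foxo targets tested, 8 (40%) were highest in both tip replicate 2 and stalk replicate 1, against 1691 (13.5%) of all 12532 genes. They were Cdkn1a, Ccng2, Bbc3, Gadd45a, Bcl6, Pdk4, Rictor and Trib1, named after their values were seen. Gadd45a, a DNA damage response gene, stood at 39.3, 115 and 43.6 RPKM in tip and 123, 52.7 and 60.04 RPKM in stalk. Bbc3, which encodes the cell death protein Puma, stood at 8.13, 25.1 and 7.01 RPKM in tip and 17.7, 9.49 and 8.66 RPKM in stalk. Neither gene was called (limma adjusted p = 0.570 for Gadd45a and 0.997 for Bbc3). With both libraries left out, Gadd45a was called toward stalk (-0.43, limma adjusted p = 0.016) and Bbc3 was not called (-0.24, limma adjusted p = 0.211). The SE of Gadd45a fell from 0.43 to 0.11, since its highest library in each group was removed, so this call is no support for a difference. Of the 10 forkhead genes, 9 were tested, and 2 of these (22.2%), Foxa1 and Foxo3, were highest in both of those libraries. Of the 8 other forkhead genes tested, 1 (12.5%), Foxn3, was. Without those libraries, 2 Foxo targets were called toward tip and 10 toward stalk.

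**Figure D3:**
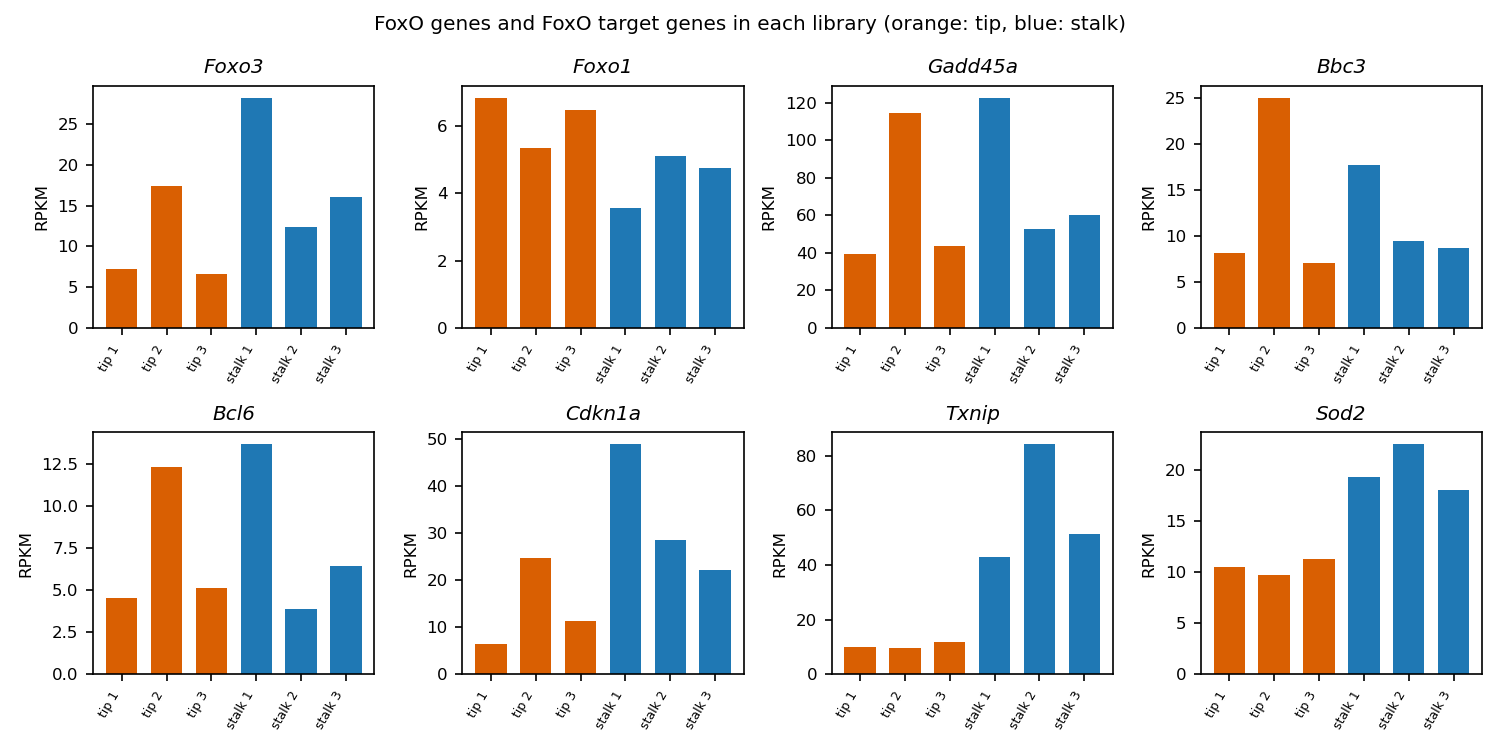
RPKM of Foxo3, Foxo1 and 6 Foxo target genes in each of the 3 tip (orange) and 3 stalk (blue) libraries, 1 bar per library, axes from 0. Foxo3, Gadd45a, Bbc3, Bcl6 and Cdkn1a are highest in tip replicate 2 and stalk replicate 1, at 17.4 and 28.2 RPKM for Foxo3, while Txnip and Sod2 separate the groups without that pattern.

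Upstream of the Foxo proteins, genes of kinases, phosphatases, receptors and 14-3-3 proteins were called in both directions. Of 26 listed, 25 were tested, 7 were called toward tip and 4 toward stalk, with a median of 0.07. The shares over all genes were 26.1% toward tip and 22.5% toward stalk, so nothing is read from these counts. Sfn, which encodes the epithelial 14-3-3 sigma, stood at 3.12, 22.7 and 4.46 RPKM in tip and 133, 62.0 and 60.5 RPKM in stalk (-3.31, SE 0.61, limma adjusted p = 0.00251). Sgk1, a kinase gene induced by aldosterone in the collecting duct, stood at 8.58, 26.7 and 8.84 RPKM in tip and 61.0, 41.6 and 60.3 RPKM in stalk (-1.98, limma adjusted p = 0.00316). Both were highest in tip replicate 2 and in stalk replicate 1, as were 9 of the 25 genes tested (36%), beside 13.5% of all genes. Without those libraries Sfn differed by -3.71 (limma adjusted p = 1.17e-05) and Sgk1 by -2.40 (limma adjusted p = 7.17e-05). Toward tip lay Skp2, which encodes a ubiquitin ligase subunit that targets Foxo1 (1.84, limma adjusted p = 0.000112), and the receptor gene Igf1r (1.498, limma adjusted p = 5.63e-05). The main Foxo kinase gene Akt1 stood at 102, 95.8 and 93.3 RPKM in tip and 104, 107 and 117 RPKM in stalk and was not called (-0.17, limma adjusted p = 0.161).

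Foxp4 and Foxp1, repressors that pair through a leucine zipper and are known from airway epithelium, differed in opposite directions. Foxp4, on chromosome 17, minus strand, stood at 45.02, 40.1 and 39.5 RPKM in tip and 24.6, 28.5 and 34.0 RPKM in stalk, and was the most abundant forkhead gene in tip. Its groups did not overlap, with stalk replicate 3 nearest to the tip. Means were 41.6 ± 3.02 RPKM (tip) and 29.0 ± 4.75 RPKM (stalk). The difference was 0.51 (SE 0.13). Foxp1, on chromosome 6, minus strand, stood at 9.11, 9.59 and 10.2 RPKM in tip and 14.4, 15.4 and 17.1 RPKM in stalk. All stalk libraries lay above all tip libraries, and the difference was -0.65 (SE 0.11). The protein-coding gene Gm20696 shares 265238 bases with Foxp1 on the same strand, and the antisense gene Gm15556 shares 1052 bases with Foxp4, so reads of these pairs may be split.

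Both genes were deposited as several rows, which carry no transcript name. Foxp4 had 8 rows, of which 3 reached a mean of 1 RPKM. Its leading row stood at 20.6, 16.7 and 15.9 RPKM in tip and 12.3, 12.1 and 11.5 RPKM in stalk, and the third row at 7.66, 7.39 and 6.37 RPKM in tip and 2.29, 0.199 and 4.47 RPKM in stalk. Neither overlapped between the groups, whereas the second row, at 14.3, 14.02 and 15.4 RPKM in tip and 9.48, 14.02 and 14.7 RPKM in stalk, did. Foxp1 had 30 rows, of which 6 reached 1 RPKM, and 1 of these, the sixth, did not overlap, at 0.568, 0.641 and 0.251 RPKM in tip and 1.45, 2.69 and 2.27 RPKM in stalk. Its leading row alone gave a difference of -0.11, against -0.65 for the sum. Row values vary within a group more than the sums do, as the third Foxp1 row shows, at 3.08 and 2.96 RPKM in stalk replicates 1 and 2 and 0.0601 RPKM in stalk replicate 3.

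**Figure D4:**
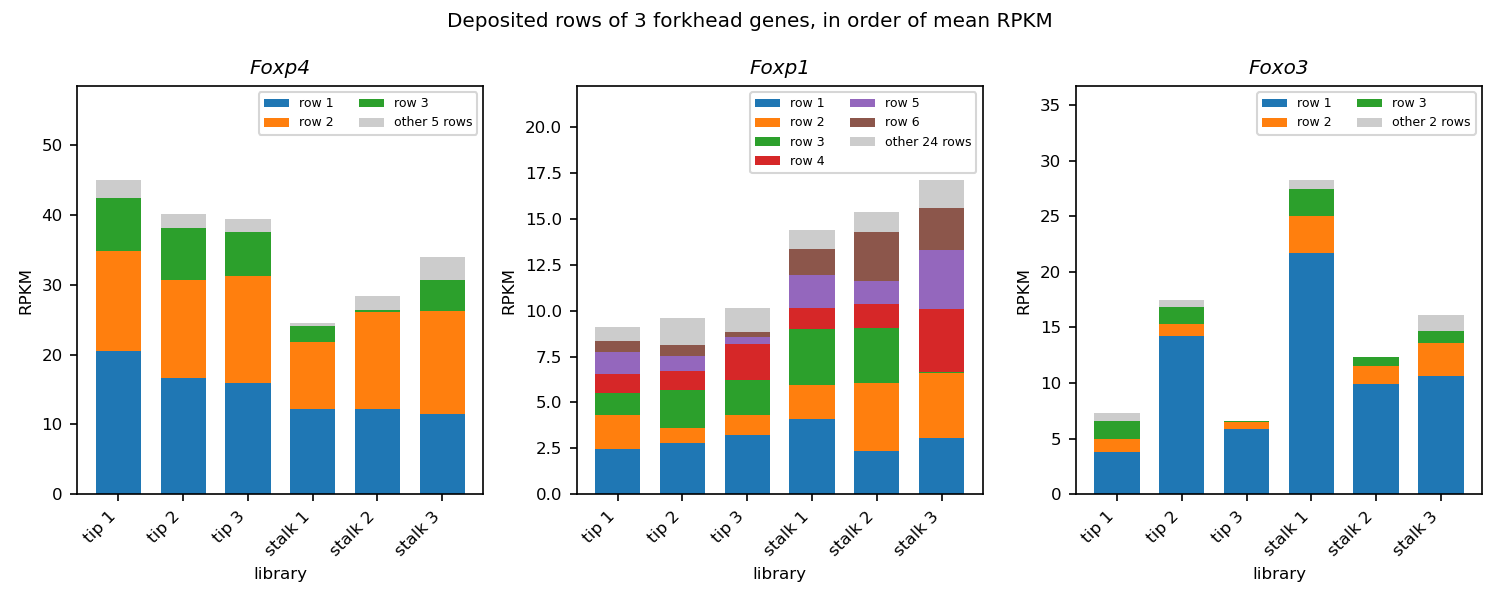
RPKM of the deposited rows of Foxp4, Foxp1 and Foxo3, stacked in each library (tip libraries left, stalk libraries right), with rows ordered by mean level and the lowest ones pooled in grey. The stack height is the summed level, 39.5 to 45.02 RPKM in tip and 24.6 to 34.0 RPKM in stalk for Foxp4. The third Foxp4 row shrinks to 0.199 RPKM in stalk replicate 2.

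Corepressors that Foxp proteins recruit lay slightly toward tip. Of 12 listed, 11 were tested, 6 were called toward tip and 2 toward stalk, with a median of 0.29, beside 26.1% and 22.5% of all genes. Mta1, a subunit of the nucleosome remodelling and deacetylase complex, stood at 64.8, 63.6 and 65.5 RPKM in tip and 29.0, 33.9 and 33.8 RPKM in stalk (0.99, limma adjusted p = 8.57e-05). Ctbp2, a C-terminal binding protein gene, followed at 0.49 (limma adjusted p = 0.00291). Toward stalk lay Satb1, a chromatin organiser gene (-0.82, limma adjusted p = 0.00199), and the nuclear receptor gene Nr2f2 (-0.58, limma adjusted p = 0.0226). Nr2f2 was not called without tip replicate 1 (-0.52), tip replicate 2 (-0.46), stalk replicate 3 (-0.55) or tip replicate 2 and stalk replicate 1 together (-0.47), nor with no minimum level (-0.58) or only its highest row (-0.41), with adjusted p over its alternatives in limma of 0.00825 to 0.148. Without tip replicate 1, 3 corepressors were called toward tip and 1 toward stalk.

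Foxk1, which represses autophagy genes with Sin3 proteins, did not separate the groups. On chromosome 5, plus strand, it stood at 8.69, 7.13 and 9.68 RPKM in tip and 6.93, 8.88 and 9.33 RPKM in stalk. The ranges covered each other almost fully, and the difference was 0.02 (SE 0.16). Its paralog Foxk2 stood at 26.2, 22.7 and 22.7 RPKM in tip and 13.8, 12.3 and 15.3 RPKM in stalk, without overlap, and was called toward tip (0.75, SE 0.12, limma adjusted p = 0.00103). Of the 14 partners of Foxk proteins tested, 4 were called toward tip and 3 toward stalk, with a median of 0.00. The shares over all genes were 26.1% and 22.5%, so nothing is read from these counts. The histone demethylase gene Kdm1b lay toward stalk (-0.67, limma adjusted p = 0.00243). The ubiquitin hydrolase gene Bap1 (0.52, limma adjusted p = 0.00182), the host cell factor gene Hcfc1 (0.56, limma adjusted p = 0.0114) and Asxl1 (0.57, limma adjusted p = 0.0274) lay toward tip. Asxl1 was not called without tip replicate 1 (0.55), tip replicate 2 (0.42), stalk replicate 2 (0.47) or stalk replicate 3 (0.59), nor with median ratio scaling (0.51) or no minimum level (0.57), with adjusted p over its alternatives in limma of 0.00949 to 0.0848. Without tip replicate 1 or without stalk replicate 2, 2 Foxk partners were called toward tip.

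Foxj1, the switch gene of motile cilia, was low, on chromosome 11, minus strand. It stood at 1.39, 1.71 and 1.498 RPKM in tip and 2.21, 2.64 and 2.82 RPKM in stalk. The groups did not overlap, and the difference was -0.49 (SE 0.15). It was not past the threshold without tip replicate 1 (-0.45), tip replicate 3 (-0.48), stalk replicate 2 (-0.47) or stalk replicate 3 (-0.44). Of 41 genes of motile cilia listed, 25 had values, most of them under the minimum, and 8 were tested. Of those 8, 1 was called toward stalk and 0 toward tip by limma (0 also at an unadjusted p under 0.05). Over all genes, 22.5% were called toward stalk and 26.1% toward tip. Every listed Dnah, Dnai and Cfap gene was without a value by symbol. Other names of these genes were not searched, so their levels are unknown here. The called gene, Ccdc113, stood at 0.0159, 0 and 0.0777 RPKM in tip and 1.28, 2.66 and 2.90 RPKM in stalk (-1.63, limma adjusted p = 0.000638). Of the 25 genes with values, most of them low, 5 had every tip library above every stalk library and 4 had every tip library below. Tekt1, a microtubule gene of cilia under the minimum level, had 0.935, 1.26 and 1.13 RPKM in tip and 0.182, 0 and 0 RPKM in stalk. The 2 most abundant tested genes, Tppp3 (-0.15, limma adjusted p = 0.476) and Rfx3 (0.30, limma adjusted p = 0.0989), were not called. With all 25 genes summed, the list stood at 20.3 to 21.6 RPKM in tip and 21.9 to 26.7 RPKM in stalk.

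The remaining forkhead genes mostly had a low level or no value. Of 34 others listed, 6 had no value, 20 had a mean under 1 RPKM, the highest of them at 0.555 RPKM, and 8 were tested. Toward tip were Foxk2, Foxo4 and Foxn2 (0.84, limma adjusted p = 0.00441), and toward stalk were Foxi1 and Foxj2 (-0.59, limma adjusted p = 0.00774), while Foxo6, Foxj3 (0.16, limma adjusted p = 0.189) and Foxn3 (-0.10, limma adjusted p = 0.592) were not called. Foxj3 changed sign when only its highest row was used (-0.06). The plot of differences sets these beside the genes described above.

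**Figure D5:**
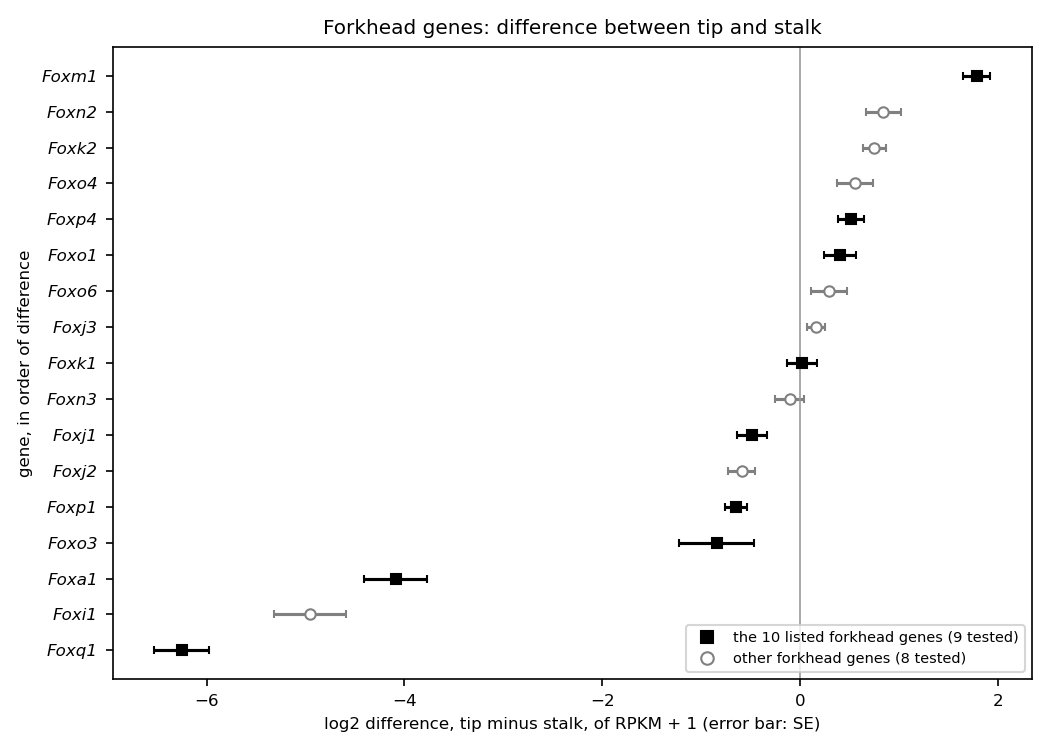
Difference between tip and stalk, on the scale of log2(RPKM + 1), of the 17 forkhead genes that entered the fit, ordered by value, with error bars of 1 SE from limma. Black squares are the genes described here and open circles the other forkhead genes. Foxq1 (-6.25), Foxi1 (-4.96) and Foxa1 (-4.09) lie apart from the others, which run from -0.84 to 1.79.

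Ordered by mean RPKM, which is a level per length, Foxp4 led in tip at 41.6 RPKM, above Foxk2 at 23.9 RPKM and Foxm1 at 23.0 RPKM, whose ranges overlapped. Foxo4 at 19.6 RPKM and Foxj3 at 15.9 RPKM followed, each below the range of the gene before it. Foxo3, Foxp1 and Foxk1 came next, with each range overlapping that of its neighbour. Foxj1, Foxa1, Foxq1 and Foxc1 formed the low end of the 10 genes in tip, each overlapping the next. In stalk, Foxq1 at 146 RPKM stood clear of every other forkhead gene. Foxa1 at 39.8 RPKM, Foxi1 at 39.3 RPKM, Foxp4 at 29.0 RPKM, Foxo3 at 18.9 RPKM and Foxp1 at 15.6 RPKM followed, each overlapping the next. Foxm1, which ranked with Foxk2 behind Foxp4 in tip, lay in the lower part of the order in stalk at 5.99 RPKM, where its range overlapped those of Foxn3 and Foxj2.

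For each gene the tested genes with the nearest profile were found by the root mean square difference of log2(RPKM + 1) over the 6 libraries, each profile centred on its own mean. For Foxq1 these were Slc4a9 (0.337), Sprr2f (0.390) and Ctse (0.392), where the median over all genes was 3.18. Those of Foxa1 were Hspb1 (0.203), its near-identical copy Hsp25-ps1 (0.211), whose reads may be shared, and Lgals3 (0.266), with a median of 2.12. Those of Foxm1 were Prr11 (0.050), Kif4 (0.0552) and Atad2 (0.0741), with a median of 0.902. Those of Foxo3 were Stat3 (0.0480), Ddit3 (0.0890) and Epha2 (0.0909), with a median of 0.757. The nearest were Nbr1, Spint2 and Etfb for Foxp1, Dcun1d4, Unc119 and Zmiz2 for Foxp4, Psme2b-ps, Gpx8 and Ndufaf3 for Foxj1, Mtpap, Diablo and Dedd for Foxk1, and Rpl35a-ps2, Krr1 and Polr2b for Foxo1, at 0.0204 to 0.0421. These profiles are dominated by the tip and stalk difference in genes with a large one, and rest on 6 libraries.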

How the data were processed

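Messenger RNA libraries (stranded Kapa kit, RNA from a Qiagen micro kit, per the labels' protocols) of tip and stalk cells were analysed, 3 per group. Per the submitters' processing notes, bcl2fastq 2.17, TopHat2 and Partek were used with mm10. Which annotation and settings were used, and whether counting used strand, is not given in the sources used here. Values are RPKM as the authors deposited them, in 1 table of 93615 rows. The 24545 rows with a question mark in all 6 columns were dropped, and RPKM was summed over the rows of each of 21456 symbols. Low values did not fall on whole-read steps, so depth was unknown and no interval or floor was given.

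Genes averaging at least 1 RPKM were fitted with limma 3.58.1 (R 4.3.3) on log2(RPKM + 1), with a mean-variance trend, no block, two-sided tests and Benjamini-Hochberg adjustment. The fit was tested on simulated data. Coordinates and coding bases came from GENCODE M21, promoters from RefSeq.

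The 10 genes and the 17 gene lists (9 of targets and partners, 7 of cell type markers and 1 of other forkhead genes, written from general knowledge) were chosen with earlier results of these data known. Each list is described by its counts and median, and some genes and 1 sequence are not reported here. Named were the 10 genes, other forkhead genes that reached this minimum, up to 4 called genes with the largest difference per list (the 2 most abundant where fewer than 2 were called), and the 3 nearest profiles per gene. Others were named after their values were seen: Cdc25b, Akt1, Fzr1, Lin52, Lin37, Grhl2, Ehf, Hnf4a, Esr1, Gadd45a and the other genes high in 2 libraries, Sod2, Tekt1, the neighbours of Foxq1 and the markers. The 15 alternatives changed the pseudocount, minimum, scaling, rows, block, trend or libraries.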

Additional observations from a re-analysis of the deposited data

How the results depend on the processing

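Most counts were stable, with 334 of 360 values under the alternatives within 1.5 times the main count. With no minimum level, 1 cilium gene was called toward tip and 3 toward stalk, 1 Foxp corepressor toward stalk and 3 Foxc1 partners toward tip. With a minimum mean of 5 RPKM, 1 other forkhead gene, 0 cilium genes and 0 Foxp corepressors were called toward stalk. With only the highest row of each symbol, 0 Foxm1 targets, 1 Foxp corepressor and 1 Foxk partner were called toward stalk and 1 Foxa1 partner toward tip, and Foxj3 (-0.0576) and Tppp3 (0.34) changed sign. The causes were not tested, save that the minimum sets which genes are fitted. With 1 library left out, calls ranged from 0 to 1 (tip) and 0 to 2 (stalk) for cilium genes, 3 to 6 (tip) and 1 to 2 (stalk) for Foxp corepressors and 2 to 3 for Foxk partners toward tip. Without tip replicate 2 and stalk replicate 1, 1 Foxp corepressor was called toward stalk. Replicate numbers are shared between the groups, but libraries with the same number did not deviate together (correlations of -0.30, -0.34 and 0.09), and tip replicate 2 deviated with stalk replicate 1 (0.56), so not every library went best with its own number. With a replicate block, 5 Foxo targets were called toward stalk and 3 Foxp corepressors toward tip, and the calls of Cdkn1a (limma adjusted p = 0.0598) and Asxl1 (limma adjusted p = 0.0555) were lost, as was the place of Foxj1 past the threshold. The differences of Foxq1 (-7.39 and -6.74 at pseudocounts of 0.1 and 0.5), Foxa1 (-4.86 at 0.1), Foxj1 (-0.70 at 0.1) and Foxp1 (-0.11 with 1 row) moved by more than the spread of libraries. That of Foxj1 also did so without tip replicate 2 and stalk replicate 1 (-0.61). With unknown depth, values under 1 RPKM have no stated counting error.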
